A study of Mus musculus with 8 samples.

Results

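Retinoic acid synthesis and response genes were followed in lungs of E14.5 mouse embryos, 9 h after the ligands of the receptor Fgfr2b had been targeted with a soluble decoy. The 10 genes were Stra6, Dhrs3, Aldh1a1, Aldh1a2, Aldh1a3, Cyp26a1, Cyp26b1, Rara, Rarb and Rarg. They were found by symbol in the annotation of the array spots, and each was represented by its brightest spot, that with the highest mean over the 8 arrays. All 10 were measured, out of 24583 named genes. Lungs labelled experimental are described as from Rosa26 rtTA/rtTA; Tg(tet(o)sFgfr2b)/+ embryos (n = 4), in which doxycycline induces a secreted form of Fgfr2b. Lungs labelled control are described as from Rosa26 rtTA/rtTA; +/+ littermates (n = 4), which lack the transgene. These genotypes go by the titles, which the Etv5 signals below do not bear out. Every embryo, controls included, carried the rtTA transactivator on both Rosa26 alleles, and every dam was given a single intraperitoneal dose of 0.0015 mg doxycycline per g. The Rosa26 locus is active in nearly all cells, so the decoy was not restricted to the lung or to its epithelium. RNA was taken from the left lobe as a homogenate, so that fewer cells of a type and less RNA per cell cannot be told apart.

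Retinoic acid is made from vitamin A in 2 steps. Retinol enters cells with the help of Stra6 and is oxidized to retinal, a step that Dhrs3 reverses, and the Aldh1a enzymes oxidize retinal to retinoic acid. The acid binds the nuclear receptors Rara, Rarb and Rarg, which sit on DNA together with retinoid X receptors and switch on genes that include Rarb and Cyp26a1. Enzymes of the Cyp26 family then break the acid down, so that the pathway limits itself. In the embryo, retinoic acid is needed for the lung buds to form, and its activity is lowered while the airways branch.

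The arrangement that retinoic acid receptors are best known to bind is a pair of 6-base motifs in the same direction with 5 bases between them. The motif searched was AGGTCA or a common variant of it, which was AGTTCA or else GGGTCA or else GGTTCA, in any pairing and on both strands. Promoter windows of 300 bases, 250 before and 50 after the start site, were taken from RefSeq (GRCm38.p6). Of the 10 genes, 9 were matched, with 19 windows in all, and Aldh1a3 was not. A pair with a spacer of 5 bases lay in 32 of 32851 windows of all genes (0.0974%). Among the 10 genes it lay in 1 window of Rarb and in 1 window of Cyp26a1, and in 0 of 62 windows of 48 other genes of the pathway. Pairs with spacers of 1 and 2 bases, which lay in 0.222% and 0.268% of all windows, were in none of the 19 windows, so that no motif overlapped another. Both windows are shown because Rarb and Cyp26a1 are the genes through which a cell's response to retinoic acid is most often read. The capitals mark the matched pair. The Rarb window is on the minus strand at chr14:16575427-16575726, with the pair 53 to 37 bases before the start. The Cyp26a1 window is on the plus strand at chr19:37697558-37697857, with the pair 32 to 16 bases before the start and facing the other way. A match describes the letters in the window and does not show that a receptor was bound.
Rarb: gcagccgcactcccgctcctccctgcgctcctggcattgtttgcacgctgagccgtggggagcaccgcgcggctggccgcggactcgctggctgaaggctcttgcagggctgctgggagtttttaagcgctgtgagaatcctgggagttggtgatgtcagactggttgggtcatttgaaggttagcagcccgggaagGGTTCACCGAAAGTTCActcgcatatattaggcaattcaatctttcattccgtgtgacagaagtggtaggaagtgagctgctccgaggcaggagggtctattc
Cyp26a1: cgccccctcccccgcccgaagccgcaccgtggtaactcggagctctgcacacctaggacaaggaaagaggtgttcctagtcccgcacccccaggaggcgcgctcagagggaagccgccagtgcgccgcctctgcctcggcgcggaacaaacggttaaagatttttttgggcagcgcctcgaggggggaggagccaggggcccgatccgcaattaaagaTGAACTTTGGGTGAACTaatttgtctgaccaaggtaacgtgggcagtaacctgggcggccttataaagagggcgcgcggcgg

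The values were normalized log2 signals, and 1 unit is a 2-fold difference. The lowest value over the array was 2.00 and the median of each array was 4.43. Lung and epithelial markers were present on all arrays, with Nkx2-1 between 10.39 and 11.38 and Epcam between 9.87 and 10.47. The title numbers 1 to 4, which both groups share, separated the arrays for Etv5, a transcription factor induced by Fgf signaling in the distal epithelium. Its log2 signal was 10.42, 10.43, 13.11 and 13.26 in the arrays labelled experimental 1 to 4, against 10.09, 10.57, 13.18 and 13.26 in those labelled control 1 to 4. Etv5 therefore differed by 2.83 between the numbers and by 0.03 between the titles, and the targeted pathway does not bear the titles out. Experimental and control are therefore names of titles here, and every signed difference between them rests on those titles. Xist, the RNA of the inactive X chromosome, was at 7.45 to 8.21 on the arrays numbered 2 and 4 and at 2.98 to 3.63 on those numbered 1 and 3, so that each titled group and each of the number sets used below held both kinds equally. Control 1 stood apart in keratins of basal and squamous epithelium. Krt5 was at 8.66 there and at 2.73 to 4.04 on the other 7 arrays.

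Between the titled groups, 0 of the 10 genes passed limma's moderated test at an adjusted p under 0.05, where 0% of all 24583 genes did so and the smallest adjusted p was 0.896. At an unadjusted p under 0.05 stood 1 of the 10, Aldh1a3, and 876 of all genes (3.56%). Groups that did not overlap were found for 0 of the 10 and for 1.90% of all genes. By sign, 6 of the 10 were higher and 4 lower in arrays labelled experimental, with a median difference of 0.04, against 0.00 over all genes. For the 8 genes whose signal was above the median of all genes (5.79), the 95% confidence intervals ran at most from −0.71 to 0.63, that is from 0.609-fold to 1.55-fold. These limits are the widest over the 8 genes, and the interval of each gene is given with its values. Aldh1a3 and Cyp26a1 lay below that median, where the spread within groups was larger. The median residual standard deviation was 0.388 over genes below the median and 0.169 over genes above it, and over the 10 genes it lay between 0.119 and 0.353.

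**Figure D1:**
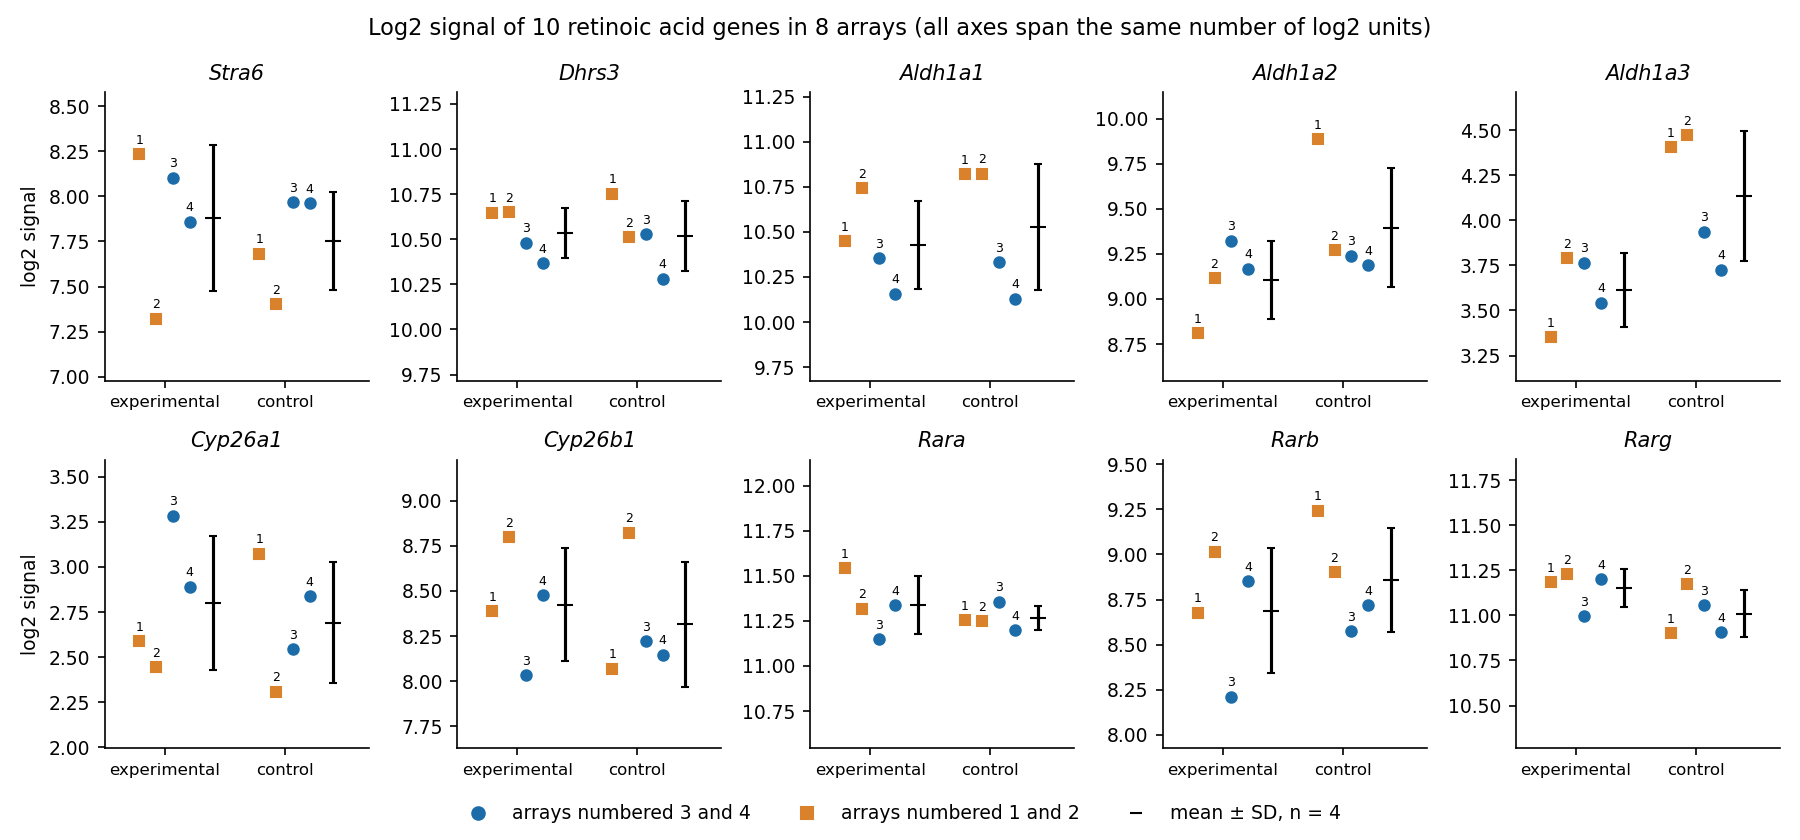
Log2 signal of each gene on each array, with experimental left of control, the title number above each point, and the mean and SD of the 4 arrays beside them. The titled groups overlap in all 10 panels, and only for Aldh1a1 do the circles (numbers 3 and 4) lie wholly below the squares (numbers 1 and 2).

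Of the enzymes that make retinoic acid, Aldh1a2 is the main one of the midgestation embryo, where it is made in mesenchyme and mesothelium. Its log2 signal was 8.81, 9.12, 9.32 and 9.17 in experimental 1 to 4, against 9.88, 9.27, 9.24 and 9.19 in control 1 to 4. The highest value was that of control 1 and the lowest that of experimental 1, while the other 6 arrays lay between 9.12 and 9.32. The means were 9.10 ± 0.22 in experimental and 9.40 ± 0.33 in control (SD, n = 4 each), a difference of −0.29 ± 0.18 (SE; limma adjusted p = 0.9998). Without control 1 the difference was −0.13. Mesothelial markers were also lower by sign in experimental for 5 of 6 genes, with list means of 7.46 to 7.85 against 7.66 to 7.92 in control, and the highest of these was again that of control 1. The mesothelial regulator Wt1 was at 6.87, 7.23, 7.54 and 7.10 in experimental 1 to 4, against 7.75, 7.81, 7.24 and 7.52 in control 1 to 4. The list of basal and squamous markers averaged 8.74 in control 1 and 6.19 to 6.51 elsewhere. The part of these markers in the Aldh1a2 values was not tested.

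Aldh1a1, a retinal dehydrogenase with broad substrate use, was at 10.45, 10.74, 10.35 and 10.16 in experimental 1 to 4. In control 1 to 4 it was at 10.82, 10.82, 10.33 and 10.13. In both groups the arrays numbered 1 and 2 were the higher ones, and all experimental values lay within the control range. The means were 10.43 ± 0.24 in experimental and 10.53 ± 0.35 in control (SD, n = 4 each), a difference of −0.10 ± 0.20 (SE; limma adjusted p = 0.9998).

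Aldh1a3, the third of these dehydrogenases, gave the difference farthest from 0, at a dim spot. Its log2 signal was 3.35, 3.79, 3.77 and 3.54 in experimental 1 to 4, against 4.41, 4.47, 3.94 and 3.73 in control 1 to 4. Experimental 2 and 3 lay just above control 4, and apart from these arrays the experimental values were below the control values. The means were 3.61 ± 0.21 in experimental and 4.13 ± 0.36 in control (SD, n = 4 each), a difference of −0.52 (95% confidence interval −0.97 to −0.08). This had an unadjusted p of 0.0264 and an adjusted p of 0.9998 in limma's test over all genes. Within numbers the difference was −1.05, −0.68, −0.17 and −0.18 for numbers 1 to 4. At both other spots of Aldh1a3 it was 0.27 and −0.09, so the direction was not shared by the spots of this gene. Below the median signal, 5.95% of genes had an unadjusted p under 0.05.

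Stra6, the cell-surface receptor that takes up retinol from its carrier in blood, was at 8.24, 7.32, 8.10 and 7.86 in experimental 1 to 4. In control 1 to 4 it was at 7.68, 7.40, 7.97 and 7.96. Experimental 1 was the highest array and experimental 2 the lowest, so that all control values lay within the experimental range. The difference was 0.13 (95% confidence interval −0.38 to 0.63).

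Dhrs3, which reduces retinal back to retinol and is itself induced by retinoic acid, was at 10.65, 10.65, 10.48 and 10.37 in experimental 1 to 4. In control 1 to 4 it was at 10.75, 10.51, 10.53 and 10.28. The experimental values lay within the control range. The difference was 0.02 (95% confidence interval −0.28 to 0.31).

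The Cyp26 enzymes clear retinoic acid. Cyp26b1 was at 8.39, 8.80, 8.03 and 8.48 in experimental 1 to 4, against 8.07, 8.82, 8.22 and 8.15 in control 1 to 4, a difference of 0.11 (95% confidence interval −0.38 to 0.60). The array numbered 2 was the highest in both groups. Cyp26a1, whose promoter window holds the receptor motif shown above, was near the lowest signal of the array. It was at 2.59, 2.44, 3.28 and 2.89 in experimental 1 to 4, against 3.07, 2.31, 2.54 and 2.84 in control 1 to 4, a difference of 0.11 (95% confidence interval −0.41 to 0.63). Differences at such signals are compressed, so a change of Cyp26a1 would be understated.

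Among the receptors, Rara and Rarg had the tightest values of the 10 genes. Rara was at 11.54, 11.32, 11.15 and 11.34 in experimental 1 to 4, against 11.25, 11.25, 11.36 and 11.20 in control 1 to 4, a difference of 0.07 (95% confidence interval −0.18 to 0.32). Rarg was at 11.18, 11.23, 11.00 and 11.20 in experimental 1 to 4, against 10.90, 11.17, 11.06 and 10.91 in control 1 to 4, a difference of 0.14 (95% confidence interval −0.11 to 0.39). For both, the interval stayed within 0.4 of 0.

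Rarb, the receptor that retinoic acid induces, varied more. It was at 8.68, 9.01, 8.21 and 8.85 in experimental 1 to 4, against 9.24, 8.90, 8.57 and 8.72 in control 1 to 4. Control 1 was the highest array and experimental 3 the lowest, and the difference was −0.17 (95% confidence interval −0.65 to 0.30). Without control 1 it was −0.04. Rarb and Cyp26a1, the genes whose windows hold the motif pair, had differences of opposite sign, neither of which passed the test. That of Cyp26a1, near the lowest signal, changed sign when single arrays were left out, so nothing is read from these signs.

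**Figure D2:**
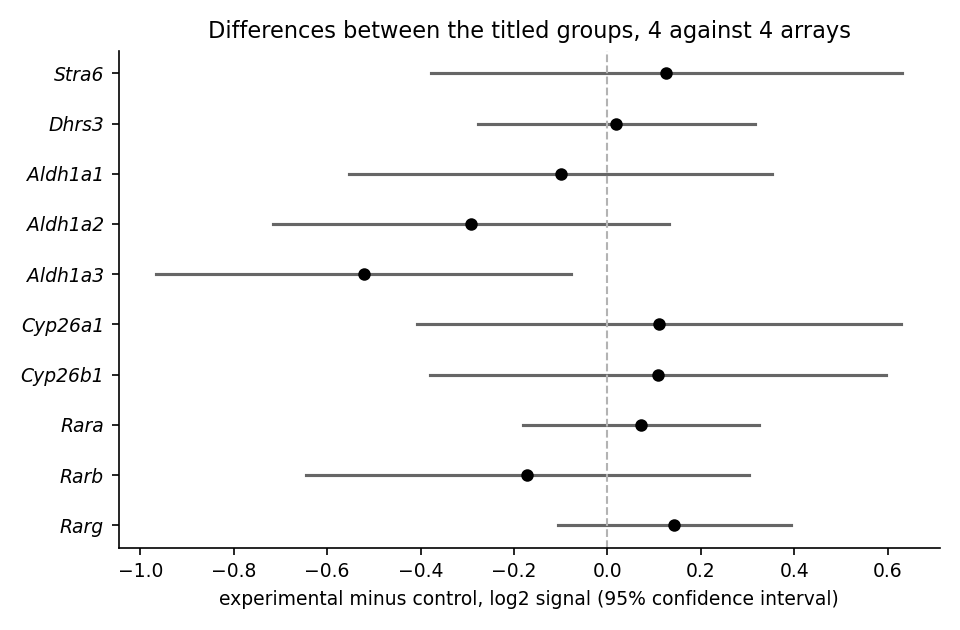
Experimental minus control in log2 signal (x axis) for the 10 genes (rows), with points for the difference and lines for the 95% confidence interval from limma. All intervals but that of Aldh1a3 (−0.97 to −0.08) include 0.

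Of 4 heart muscle markers, 3 were lower and 1 was higher by sign in arrays labelled experimental, and 0 passed. Myh6, Myl7 and Tnnt2 were lower in all 4 arrays labelled experimental than in all 4 labelled control, by 0.46 to 0.54 in log2 signal (adjusted p = 0.9998 each in limma's test). Nppa, the fourth, was 0.37 higher in experimental (means 4.58 in experimental and 4.21 in control), with overlap and the same adjusted p. Titled groups did not overlap for 1.90% of all genes. Of the 4 markers, 3 had an unadjusted p under 0.05 in limma's test, beside 3.56% of all genes. The list means were 8.82 to 9.24 in experimental and 9.17 to 9.38 in control. Markers of mesenchyme averaged 12.21 to 12.35 in experimental and 12.05 to 12.26 in control, and those of endothelium 10.38 to 10.49 in experimental and 10.29 to 10.44 in control. The part of cell composition in the differences of the retinoic acid genes was not tested.

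By title number the genes were described without a test, since this split was proposed with results of these data known and the labels do not say what a number marks. Since Etv5 was low in numbers 1 and 2 under both titles, the titles leave unsettled which lungs were the inhibited ones. It cannot be told from them whether a difference by number is one between inhibited and control lungs, and each is given as a difference between numbers only. Aldh1a1 was the 1 gene of the 10 whose arrays numbered 3 and 4 did not overlap with those numbered 1 and 2, against 10.6% of all genes. Lower in numbers 3 and 4 with no overlap were 5.17% of all genes, and higher 5.39%. Sets that did not overlap and differed by at least 1 were seen for 0 of the 10 genes and for 0.724% of all genes. Genes above the median signal were apart more often (17.3%), so that 1 of the 8 retinoic acid genes above the median is no more than the background. By sign, 8 of the 10 were lower and 2 higher in numbers 3 and 4, with a median of −0.15, against 0.00 over all genes.

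Aldh1a1 was at 10.35 and 10.16 in experimental 3 and 4 and at 10.33 and 10.13 in control 3 and 4, against 10.45 and 10.74 in experimental 1 and 2 and 10.82 and 10.82 in control 1 and 2. The means were 10.24 ± 0.12 for numbers 3 and 4 and 10.71 ± 0.18 for numbers 1 and 2 (SD, n = 4 each), a difference of −0.46. That is a level 1.38-fold higher in numbers 1 and 2, with a gap of 0.09 between the nearest arrays of the sets. The difference was −0.34 within the experimental arrays, −0.59 within the control arrays and −0.43 without control 1. Of the genes above the median signal, 6.05% had a larger difference in either direction.

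Rarb followed in size, with means of 8.59 ± 0.28 for numbers 3 and 4 and 8.96 ± 0.24 for numbers 1 and 2 (SD, n = 4 each), a difference of −0.37. It was −0.31 within the experimental arrays, −0.43 within the control arrays and −0.28 without control 1, but experimental 4 and control 4 (8.85 and 8.72) lay above experimental 1 (8.68), so the sets overlapped. Dhrs3 averaged 10.41 ± 0.11 for numbers 3 and 4 and 10.64 ± 0.10 for numbers 1 and 2 (SD, n = 4 each), and the sets overlapped by 0.02, through control 3 and control 2. Its difference was −0.22 within the experimental and −0.23 within the control arrays. Cyp26b1 differed by −0.30 and Aldh1a3 by −0.26, both with overlap.

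Stra6 and Cyp26a1 were higher in numbers 3 and 4, by 0.31 and 0.28. Stra6 was at 7.86 to 8.10 there and at 7.32 to 8.24 in numbers 1 and 2, with experimental 1 as the array that overlapped. Cyp26a1 differed by 0.57 within the experimental arrays and by 0.00 within the control arrays. For Aldh1a2 the difference was −0.04, made of 0.28 within the experimental and −0.36 within the control arrays, and it was 0.16 without control 1. Rara and Rarg each differed by −0.08. In all, 7 of the 10 genes had the same sign within both titled groups, with Cyp26a1 counted on a control difference of 0.0002. The same share over all genes was not counted, so nothing is read from this number.

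**Figure D3:**
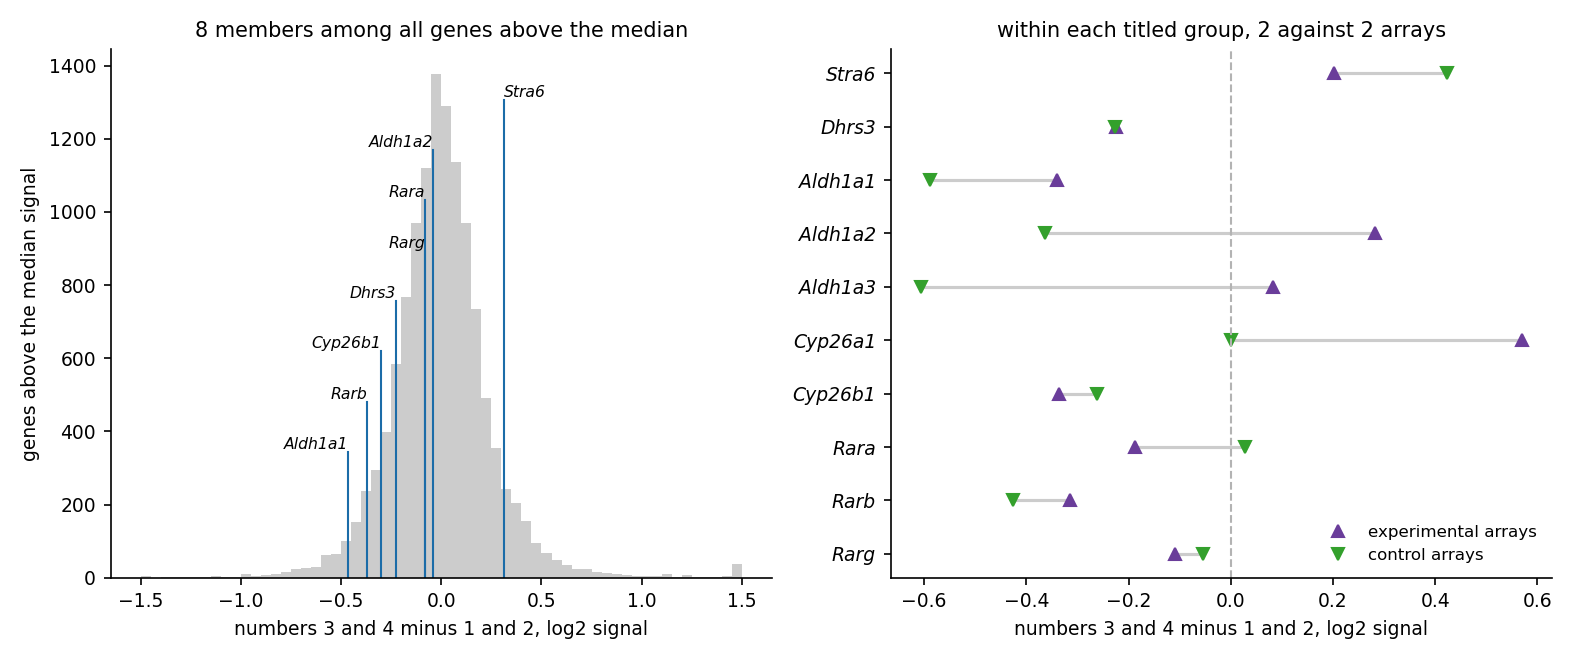
Left, the number of genes above the median signal (y axis) by their log2 difference, numbers 3 and 4 minus 1 and 2 (x axis, differences past 1.5 in either direction counted in the outermost bars), with lines at the 8 retinoic acid genes above the median. Right, the same difference (x axis) for each of the 10 genes within the 4 experimental and within the 4 control arrays, where Aldh1a1 lies at −0.34 and −0.59 and Aldh1a2 on both sides of 0.

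The distal tip and smooth muscle marker lists also went with the number, and other lists did so in part or not at all. Over all genes 10.6% were apart by number, and 17.3% of those above the median signal. The lists of airway, basal and squamous, mesothelium and endothelium markers had 0 genes apart. The basal and squamous list still had a median difference of −0.63 by number, and its Krt15 differed by −1.39 with an overlap of 0.02. Within the experimental arrays Krt15 differed by −1.24 and Krt5 by 0.96. All 5 distal tip markers (Sox9, Id2, Etv4, Etv5 and Sftpc) were higher in numbers 3 and 4 without overlap, with list means of 11.66 to 11.80 in numbers 3 and 4 and 9.62 to 10.03 in numbers 1 and 2. All 4 smooth muscle markers were lower without overlap, with list means of 11.78 to 11.98 in numbers 3 and 4 and 12.29 to 12.74 in numbers 1 and 2. Tagln, an actin-binding protein of smooth muscle, was at 12.42 to 12.54 in numbers 3 and 4 and at 12.94 to 13.40 in numbers 1 and 2. Of 8 pan-epithelial markers 3 were higher without overlap (Epcam, Nkx2-1 and Cldn3), with list means of 10.46 to 10.57 in numbers 3 and 4 and 10.10 to 10.42 in numbers 1 and 2. Krt8, Krt18 and Cldn4 of that list were lower in numbers 3 and 4 with overlap, by −0.07, −0.11 and −0.09. Of 7 mesenchymal markers, Foxf1 was higher and Tcf21 and Col1a1 were lower without overlap, with list means of 12.05 to 12.23 in numbers 3 and 4 and 12.21 to 12.35 in numbers 1 and 2. Of 5 leukocyte markers, 1 was lower in numbers 3 and 4 without overlap, Csf1r, by −0.30. Ptprc, Cd68, Adgre1 and Lyz2 were lower with overlap, by −0.19, −0.09, −0.21 and −0.28. The leukocyte list means did not overlap, at 9.17 to 9.34 in numbers 3 and 4 and 9.42 to 9.49 in numbers 1 and 2. The part of these cell types in the Aldh1a1, Rarb and Dhrs3 values was not tested.

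**Figure D4:**
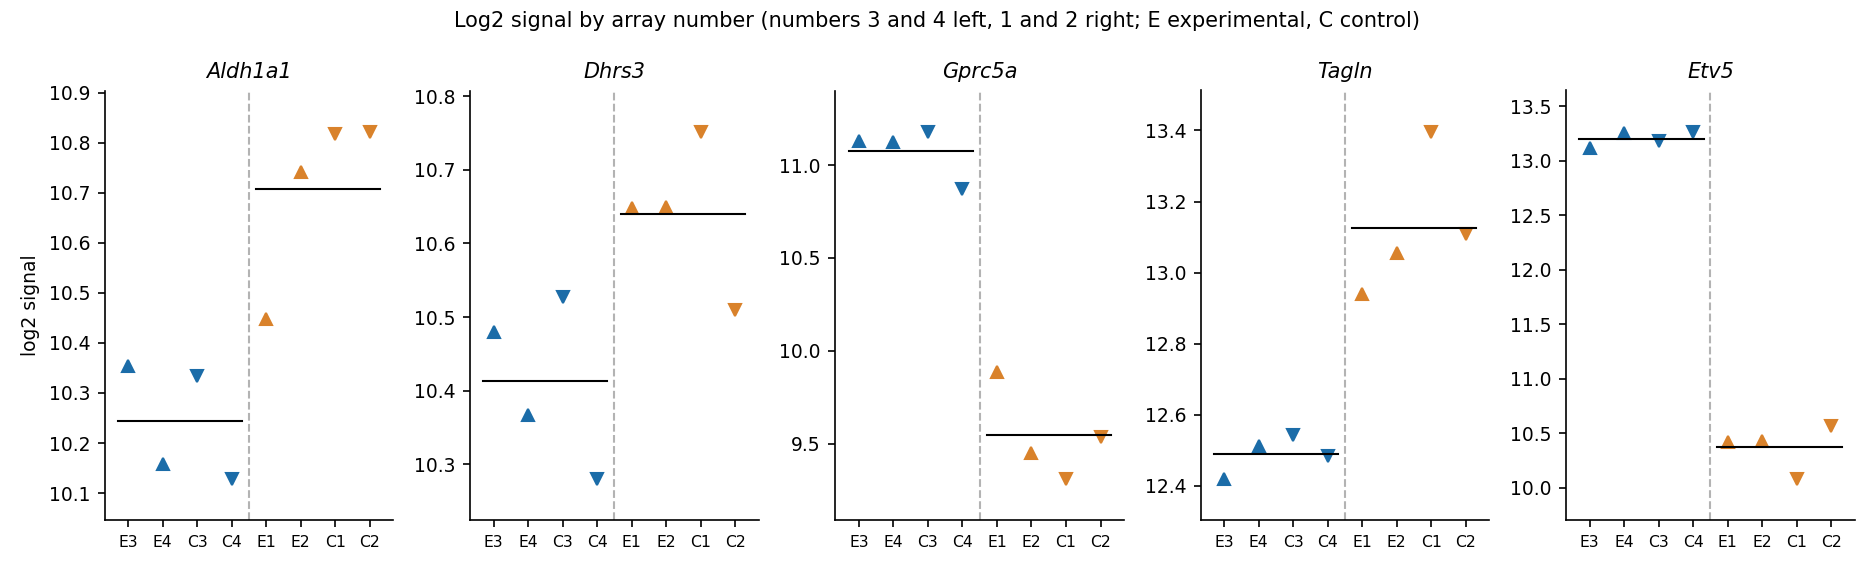
Log2 signal (y axis, a scale of its own in each panel) on each array, with numbers 3 and 4 left of the dashed line and numbers 1 and 2 right of it, upward triangles for experimental arrays, downward triangles for control arrays and bars for the mean of 4 arrays. Aldh1a1 and Tagln lie lower in numbers 3 and 4, Gprc5a and Etv5 lie higher, and Dhrs3 overlaps by 0.02.

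Other genes of the pathway were taken from 4 lists with 71 genes, of which 66 were measured. Between the titled groups 0 rose and 0 fell at an adjusted p under 0.05 in limma's test (smallest 0.896), 3 had an unadjusted p under 0.05, and the median difference was 0.01, against 0.00 over all genes. Titled groups did not overlap for 2 of the 66, beside the 1.90% of all genes given above. By number, 6 of the 66 (9.09%) were apart, 2 higher and 4 lower in numbers 3 and 4, beside 10.6% of all genes.

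Retinoid transport and binding had 9 measured genes, of which 0 passed and 0 were apart by number. Rbp4, which carries retinol in blood to Stra6, was at 9.19 to 9.40 in numbers 3 and 4 and at 8.71 to 9.26 in numbers 1 and 2, and it differed by −0.01 ± 0.20 (SE) between the titled groups. Rbp7, a retinol-binding protein of the cytoplasm, differed by −0.24 between the titled groups and by −0.53 by number. Rbp2, Stra6l and Ttr were near the lowest signals, with differences between the titled groups of −0.41, 0.30 and 0.17, and Rbp3 differed by 0.13. None of these differences passed the test.

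Of 21 measured oxidoreductases and carotenoid-cleaving enzymes, 0 passed, 7 were higher and 14 lower by sign in experimental. Rdh10, the main enzyme that oxidizes retinol to retinal in the embryo, was at 7.69, 7.86, 7.54 and 7.54 in experimental 1 to 4, against 7.84, 8.11, 7.57 and 7.72 in control 1 to 4. Its difference was −0.15 ± 0.14 (SE) between the titled groups and −0.28 by number, with overlap in both. Adh7, an alcohol dehydrogenase that can oxidize retinol, had an adjusted p of 0.896 in limma's test. This equals the smallest over all genes, a value that the adjustment can give to several genes at once. It was at 2.16 to 2.54 in experimental and at 3.06 to 3.25 in control, a difference of −0.77 near the lowest signal of the array, with no overlap. Rdh1, Bco2 and Aldh8a1 were also dim and differed by 0.55, 0.44 and −0.42, with an unadjusted p of 0.0683 or more. Rdh11 differed by −0.17 between the titled groups. By number, Cyp26c1, the remaining Cyp26 enzyme, and Bco1 differed by −0.38 and −0.34 at dim spots, with overlap. Only Aldh1a7, a close relative of Aldh1a1, was apart by number in this list, lower by 0.16 in numbers 3 and 4.

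The retinoid X receptors and coregulators had 12 measured genes, of which 0 passed. Kat2b gave the largest difference of those named, 0.22 ± 0.18 (SE), and Ncoa2, Ep300 and Hdac3 differed by 0.11, 0.09 and 0.10. Crebbp, an acetyltransferase that nuclear receptors recruit, was the 1 gene apart by number, lower by 0.33 in numbers 3 and 4, while Rxrg and Ncoa3 differed by −0.23 and −0.14 with overlap.

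Of 24 measured genes known to respond to retinoic acid in embryos or cell lines, 0 passed. Cdx1, a homeobox gene with a known retinoic acid response, was at 3.22 to 3.99 in experimental and at 2.68 to 3.06 in control, a difference of 0.73 with no overlap and an adjusted p of 0.9998 in limma's test. Hoxa2 was at 7.94, 7.91, 7.51 and 7.57 in experimental 1 to 4, against 7.38, 7.63, 7.22 and 7.21 in control 1 to 4, a difference of 0.38 ± 0.15 (SE) with the same adjusted p. Hoxa4 and Meis2 differed by −0.24 and −0.26. By sign, 17 of the 24 were higher and 7 lower in experimental, with a median of 0.03.

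By number, 4 of these 24 response genes were apart, 2 in each direction. This is near the background, since 21 of the 24 lay above the median signal, where 17.3% of genes were apart. Apart with a difference of at least 1 was 1 of the 24, Gprc5a, beside 0.724% of all genes. Gprc5a, a membrane receptor first found as a retinoic acid-induced gene, was at 11.13 and 11.13 in experimental 3 and 4 and 11.18 and 10.87 in control 3 and 4, against 9.88 and 9.45 in experimental 1 and 2 and 9.31 and 9.53 in control 1 and 2. Its difference was 1.53, or 1.46 within the experimental and 1.60 within the control arrays. Rai14, also named for its induction by retinoic acid, was at 11.54 to 11.61 in numbers 3 and 4 and at 10.71 to 11.05 in numbers 1 and 2, a difference of 0.69. Meis1 and Tgm2 were lower in numbers 3 and 4 without overlap, by 0.29 and 0.25. Genes of this list thus lay on both sides, and Rarb and Cyp26a1, which carry the motif pair, overlapped between the sets.

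The 10 genes had 19 spots on the array, of which 1 was used for each. Stra6, Aldh1a1, Aldh1a2, Cyp26a1 and Cyp26b1 had 1 spot. Of the 9 other spots, 7 had a mean under 4, near the lowest signals. No spot of the 10 genes had titled groups that did not overlap, and only that of Aldh1a1 had number sets that did not. The second spot of Rarb, on another transcript, differed by −0.47 between the titled groups and by −0.49 by number, in the directions of the spot used (−0.17 and −0.37), with a correlation of r = 0.76 over the 8 arrays. The second spot of Rara differed by 0.01 and 0.07 and correlated at 0.69. The second spot of Dhrs3, on the same transcript as the spot used, had a mean of 3.82 and differed by −0.74 and −0.11, with a correlation of 0.26. The spot of Dhrs3 that was used had a mean of 10.53, so the second spot is a dim reading near the lowest signals.

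For each of the 8 genes above the median signal, the 3 genes most like it in pattern were taken by Pearson's correlation over the 8 arrays, among 12283 genes above the median. They were picked as the highest of 12283 values, so their size is set by the choice and the arrays share titles and numbers. Aldh1a1 was followed most closely by Lsp1 (r = 0.99), Sgce and Csrp2 (0.97 each). Lsp1 was at 12.98 and 12.87 in experimental 3 and 4 and at 12.90 and 12.80 in control 3 and 4, against 13.02 and 13.24 in experimental 1 and 2 and 13.25 and 13.31 in control 1 and 2. All 3 were lower in numbers 3 and 4, by 0.24 to 0.32.

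Genes most like Dhrs3 were Acaa2, Ctla2a and Hsd11b1 (0.97 each), lower by 0.29, 0.19 and 0.59 in numbers 3 and 4. Those most like Rarb were Iigp1 (0.97), Sncaip (0.96) and Rtn1 (0.95). Those most like Aldh1a2 were Zfyve19 (0.97), Igfbp3 (0.96) and Coa4 (0.95), and all 3 had their highest value in control 1, as Aldh1a2 did. Stra6 was followed by Pik3ca, B020031M17Rik and Gja1 (0.94 each), with experimental 2 as the lowest or next to lowest array. Cyp26b1 was followed by 1700088E04Rik (0.98), Vamp2 (0.97) and Dennd4b (0.93), Rara by Plekhh3 (0.97), Pitpnc1 (0.97) and Wdr26 (0.96), and Rarg by Copa (0.96), Zfp385a (0.95) and Thap3 (0.93).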

How the data were processed

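RNA of 8 left lobes, 4 a group, was measured on one-colour Agilent arrays. The authors corrected mean spot signals by normexp on the negative control spots, took logs and quantile-normalized them, and these log2 signals were deposited for 62976 spots. Base 2 was read from the values. Signals near the lowest value, 2.00, are compressed, and no detection call was used here. Which litter a lung came from is not stated. The unpaired p-values and intervals measure the spread between these lungs, which includes their differences by title number.

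A symbol was annotated for 43941 spots, updated through the RefSeq gene table (GRCm38.p6), which held the accessions of 33708. The brightest spot stood for a gene, after the study's rule. Titled groups were compared with lmFit and eBayes of limma 3.58.1 (R 4.3.3), without pairing and two-sided, as the study's methods state, with Benjamini-Hochberg adjustment over 24583 genes and 0.05 as the threshold. The fits were tested on simulated data. Arrays of 1 number deviated together from their group means, with correlations across genes of 0.109, 0.146, 0.124 and 0.117 for numbers 1 to 4, above the limit of 0.1, and 8 of 8 arrays correlated best with their own number. What a number marks is not given. Alternatives were the number as a replicate block, an unmoderated test, a variance trend, a filter on dim genes, the mean of all spots and each array left out.

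Members and lists were chosen with earlier results of these data known. Named were all members, from each pathway list up to 4 genes with the smallest p and up to 4 with the largest difference by number, and the 3 genes most like each bright member. Marker genes and Aldh1a7, Meis1 and Tgm2 were named beside counts after their values were seen.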

Additional observations from a re-analysis of the deposited data

Results flagged for a closer look

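Aldh1a2 in control 1, with a log2 signal of 9.88, stood apart from the other 3 control arrays, which lay between 9.19 and 9.27. Its gap to the nearest of them took up 0.879 of the range of the group, above Dixon's 95% critical value for 4 arrays. The search covered 20 groups (10 genes in experimental and in control arrays) and found 1 such value, and chance gives about 1 in 20. Krt5 and Krt15 were also highest in this array, at 8.66 and 11.34, against 3.18 to 3.67 and 8.25 to 8.58 in control 2 to 4.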

How the results depend on the processing

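With each of the 13 alternatives, 0 of the 10 genes, 0 of the 66 other pathway genes and 0 of all genes passed between the titled groups by limma or by the unmoderated t-test. The count of all genes at an unadjusted p under 0.05 was 876, and 285 to 1182 under the alternatives, with 788 by the unmoderated t-test. With the number as a replicate block it was 1182, the smallest adjusted p of the 10 genes was 0.9991 and Aldh1a3 kept its difference of −0.52 (unadjusted p = 0.0368 in limma's blocked fit), and no other call changed. Of 128 differences of the 10 genes, 7 turned in sign. Dhrs3 was −0.36 with the mean of the spot used and its dim spot (mean 3.82). Leaving out 1 array at a time gave −0.060 to 0.097 for Dhrs3, −0.049 to 0.24 for Cyp26a1 and −0.015 to 0.28 for Cyp26b1, and the cause was not tested. The others kept their sign, but several nearly vanished. Aldh1a1 was −0.23 to −0.0017 (nearest 0 without control 2, or −0.0028 without control 1), Stra6 0.0078 to 0.31 (nearest 0 without experimental 1), Rara 0.0025 to 0.13 (without experimental 1), Rarb −0.28 to −0.012 (without experimental 3) and Aldh1a2 −0.36 to −0.13 (without control 1), while Aldh1a3 was −0.66 to −0.41 and Rarg 0.11 to 0.20. With 1 array left out, all 10 genes had an adjusted p of 0.9995 or more in limma's test. Dhrs3 had an adjusted p of 0.9994 in limma's test with the mean of its spots. By number, 1 of the 10 genes was apart over all arrays. With fewer arrays compared, which makes overlap rarer, 4 were apart within the experimental and 5 within the control arrays (41.3% and 38.5% of all genes), and 1 to 3 with 1 array left out (13.5% to 15.5% of all genes). Without experimental 1 these were Aldh1a1, Rarb and Stra6, and without control 2 or control 3 they were Aldh1a1 and Dhrs3. The number of arrays and the compression of dim spots limit all of these values.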
